A study of Mus musculus with 24 samples.

Results

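The comparison described here is between macrophages labelled as Trem2 knockout and wild-type macrophages, both exposed to sphingosine-1-phosphate (S1P). It takes 8 of the study's 24 libraries, chosen by their labels: 4 knockout libraries (KO S1P, numbered 91 to 94) and 4 wild-type libraries (WT S1P, numbered 25 to 28). Of the 54532 genes in the deposited table, 10792 reached an FPKM of 1 in at least 4 of these 8 libraries and were compared. FPKM is the number of fragments of a gene relative to its exon length and to the size of the library.

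The cells were primary macrophages from the bone marrow of C57BL/6 mice, grown for 7 days with medium from cultures of L929, fibroblasts that secrete macrophage growth factor. Knockout cells carried the genotype Trem2(-/-), and the S1P groups of both genotypes received 500 nM S1P for 24 hours. Untreated cells of each genotype were the study's controls. A further pair of groups received medium conditioned by apoptotic cells (ACM), made from AML12 hepatocytes killed with 800 µM palmitic acid. Each of the 6 groups had 4 libraries. The sources used here do not give the knockout allele, the vehicle of S1P, the age of the mice or the number of animals or cultures behind the libraries, so the p-values measure only the spread between libraries, which may be technical. Library numbers run in a separate block for each group, not only for each genotype. A technical shift between blocks, such as another day of preparation, would therefore look the same as an effect of genotype or of treatment. The same holds for the interaction of genotype and treatment.

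Trem2 is a surface receptor of macrophages and microglia that binds lipids and lipoproteins, and it signals through the adaptor Tyrobp (DAP12) and the kinase Syk. It is known for its part in the lipid-handling state of macrophages in fat, arteries and liver. S1P is a signalling lipid that acts on G protein-coupled receptors and is also released by dying cells, where it attracts phagocytes.

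Trem2 mRNA was lower in the knockout but not absent. Its FPKM was 97.7, 103, 109 and 104 in the WT S1P libraries and 38.5, 40.1, 39.1 and 40.7 in the KO S1P libraries. The groups did not overlap, and the log2 difference, here and below KO minus WT on log2(FPKM + 1), was -1.36 ± 0.04 (SE, n = 4 and 4), with an exact 2-sided permutation p of 0.0286 over 70 arrangements, the smallest that 4 against 4 allows. The KO ACM libraries lay between 36.8 and 40.5. In untreated cells, the libraries labelled KO 79, 80 and 82 had 40.2, 35.7 and 38.9, but the library labelled KO untreated 81 had 79.6, inside the 74.5 to 82.7 of the WT untreated libraries. That library goes against its label, does not enter the S1P comparison, and is left out of every untreated value below unless stated.

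Depth was 19.7 to 25 M reads (M is 1e+06) in the S1P libraries, as recovered from the FPKM. The 8 macrophage markers Csf1r, Adgre1, Fcgr1, Cd68, Mertk, Lyz2, Itgam and Cd14 summed to 4646 to 6438 FPKM in the WT S1P libraries and 4913 to 5105 in the KO S1P libraries. The 11 fibroblast markers summed to at most 0.173 FPKM and the 16 lymphoid, mast and erythroid markers to at most 1.31. On the first principal component, which held 74.7% of the variance of these 8 libraries, the KO libraries lay between 20.5 and 21.2, WT 25 and 26 at -10.9 and -17.1, and WT 27 and 28 at -27.8 and -27.1. WT 25 and 26 therefore lay nearer to the knockout than WT 27 and 28, and many differences below were smaller in those libraries, though not those of the type I interferon genes. Pairs of libraries of 1 group differed beyond sampling noise in both genotypes, with a chi-square of the recovered reads per degree of freedom of 3.22 to 24.6 in WT S1P and 2.98 to 9.6 in KO S1P. The transcript Gm23935 alone held 8.82 to 11.9% of the FPKM sum in WT S1P and 8.91 to 18.6% in KO S1P.

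Under S1P, 5494 of the 10792 genes (50.9%) differed between the genotypes at a Benjamini-Hochberg adjusted p under 0.05 in limma, the rule for every gene called higher or lower below. Of these, 2805 (26%) were higher and 2689 (24.9%) lower in the knockout. The groups did not overlap for 5221 genes (48.4%), 2669 higher (24.7%) and 2552 lower (23.6%). Most differences were small: 313 genes were called with a log2 difference of at least 1, of which 151 were higher and 162 lower. That number was 204 without WT 27 and 212 without WT 28, and rose to 540 with a pseudocount of 0.1 and 550 with limma voom on the recovered reads. The median over all genes tested was -0.00189, so the lists below are read against a background of about equal shares up and down. That balance depends on the scaling: the split was 2082 higher and 2917 lower with TPM scaling (median -0.055). With median scaling it was 2557 and 3006.

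**Figure D1:**
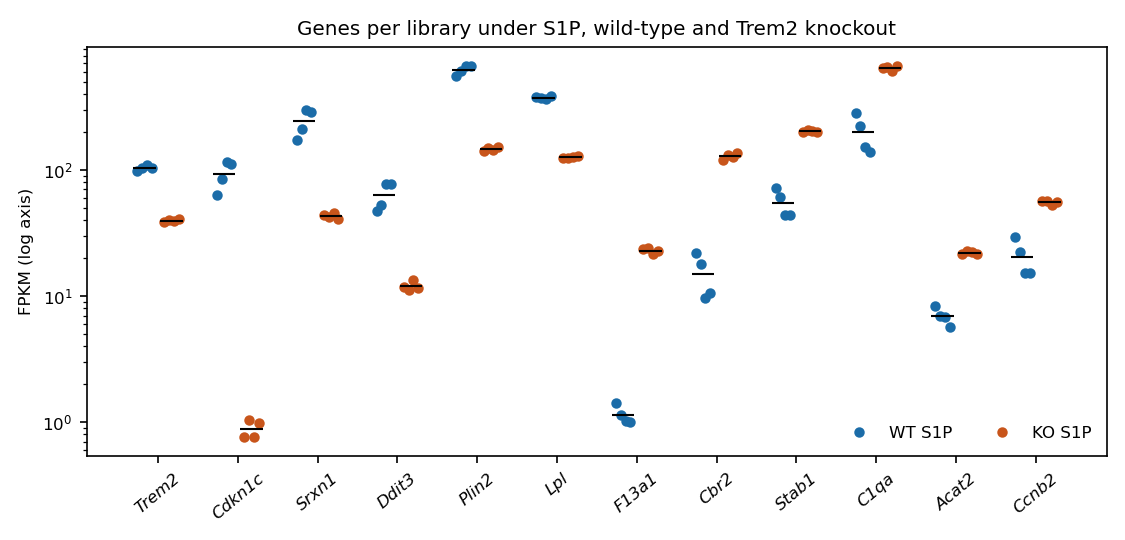
FPKM (log axis) of 12 genes in each of the 4 WT S1P (blue) and 4 KO S1P (orange) libraries, in order of library number, with the mean of each group as a black line. The groups are separate for every gene shown. For Cdkn1c, Srxn1, Cbr2 and C1qa the WT libraries 27 and 28 lie farther from the KO libraries than 25 and 26, and for Lpl they do not.

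The gene with the largest fall was Cdkn1c, which encodes the cyclin-dependent kinase inhibitor p57 and is an imprinted gene (chromosome 7, 143458339 to 143461050, GRCm38). Its FPKM was 63.4, 84.4, 115 and 111 in the WT S1P libraries and 0.768, 1.03, 0.757 and 0.992 in the KO S1P libraries. All WT libraries were above all KO libraries, with a mean 105-fold higher and a log2 difference of -5.61 ± 0.17 (adjusted p = 7.76e-08). In untreated cells Cdkn1c was low in both genotypes, at 1.32 ± 0.252 FPKM in WT (SD, n = 4) and 1.23 ± 0.198 in KO (SD, n = 3).

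Serpinb9b, Procr and Cox6a2 were among the other large falls. Serpinb9b, a serine protease inhibitor of the clade that blocks granzymes, had 28.3, 37.3, 54.6 and 56.95 FPKM in WT S1P and 1.24, 1.05, 1.14 and 1.31 in KO S1P (-4.32 ± 0.19). Procr, the endothelial protein C receptor, had 42.8, 56.2, 79.4 and 75.5 and 5.40, 5.19, 5.56 and 5.36 (-3.30 ± 0.17). Cox6a2, the muscle-type form of a cytochrome c oxidase subunit, had 17.7, 21.9, 32.9 and 30.7 and 0.297, 0.877, 0.780 and 1.20 (-3.89 ± 0.21). In these 3 genes WT 27 and 28 were the highest libraries and WT 25 the lowest WT library. Sh2d6 (-2.93), Hid1 (-2.49) and Ptchd1 (-2.32) fell too. Hid1 was at or below 0.231 FPKM in every KO library, so it passed the filter only through the WT libraries.

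Genes of the NRF2 response, which makes glutathione, thioredoxin and NADPH and detoxifies electrophiles, were lower in the knockout almost as a whole. Of 26 listed genes, 24 were called lower and 0 higher, with a median of -0.965, against 24.9% of all genes called lower. The number lower was 21 at a minimum FPKM of 5. Slc7a11 and Gsta3 passed the filter only through the WT libraries. Slc7a11, the cystine importer that feeds glutathione synthesis, had 4.45, 6.40, 8.65 and 8.95 FPKM in WT S1P and 0.425, 0.389, 0.485 and 0.470 in KO S1P (-2.45 ± 0.17). Srxn1, sulfiredoxin, which repairs oxidised peroxiredoxins, had 171, 209, 299 and 288 and 44.3, 42.5, 45.6 and 41.1 (-2.42 ± 0.16). Prdx1, an abundant peroxiredoxin, had 1287, 1482, 1827 and 1851 and 423, 420.1, 443 and 434 (-1.89 ± 0.11). Each was lowest in WT 25 among the WT libraries and highest in WT 27 or 28, and no WT library reached the KO range.

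Within the same list, the quinone reductase Nqo1 had a difference of -2.14 ± 0.09, the autophagy receptor Sqstm1 -2.04 ± 0.19, the glutathione transferase Gstm1 -1.81 ± 0.10 and catalase (Cat) -1.51 ± 0.11. Both subunits of the enzyme that starts glutathione synthesis were lower, Gclm by -1.76 ± 0.15 and Gclc by -1.03 ± 0.16. The pentose phosphate enzyme G6pdx differed little, at 108, 102, 105 and 103 and 86.6, 87.3, 87.2 and 87.3 FPKM (-0.26 ± 0.03). Hmox1, heme oxygenase 1, was not called: it had 244, 249, 278 and 266 FPKM in WT S1P and 258, 263, 254 and 254 in KO S1P (-0.01 ± 0.05, adjusted p = 0.879), and the groups overlapped. Tkt, the other gene of the list that was not called, had a difference of -0.07 ± 0.03 (adjusted p = 0.0837).

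The factor NRF2 binds the antioxidant response element, searched here as TGACNNNGC on both strands of the RefSeq promoter windows (250 bases before to 50 after the start, GRCm38.p6). Of the 26 NRF2-list genes, 22 had a window, and 8 of these (36.4%) held the motif, against 14% of all 27025 genes with a window and 17.3% of the 8173 tested genes with one. The windows around the match are printed for the 5 whose match lay before the start, to show what was counted, 5′ to 3′ in the direction of the gene, with the match in capitals. A match describes these letters and is not a measured binding site. The list holds genes chosen for the NRF2 response, so its share of windows with the motif does not bear on the genotype difference.
Prdx1 (chr4:116685436-116685504, gene on the plus strand): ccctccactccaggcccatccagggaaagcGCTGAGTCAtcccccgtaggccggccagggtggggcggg
Gclm (chr3:122245393-122245461, gene on the plus strand): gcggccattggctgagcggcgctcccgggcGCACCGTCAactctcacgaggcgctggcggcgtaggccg
Txnrd1 (chr10:82859084-82859152, gene on the plus strand): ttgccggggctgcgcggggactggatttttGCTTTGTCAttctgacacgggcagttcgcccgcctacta
G6pdx (chrX:74428899-74428967, gene on the minus strand): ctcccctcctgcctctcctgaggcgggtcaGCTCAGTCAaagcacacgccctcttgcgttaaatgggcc
Gsta3 (chr1:21240434-21240502, gene on the plus strand): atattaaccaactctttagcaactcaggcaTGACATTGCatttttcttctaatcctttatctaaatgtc
The match of Gsta3 lay on the strand of the gene and the other 4 on the opposite strand. Gsta3, a glutathione transferase of a multigene family whose copies can share reads, had 1.17, 2.19, 2.42 and 1.998 FPKM in WT S1P and at most 0.0297 in KO S1P (-1.52 ± 0.14). The thioredoxin reductase Txnrd1, the third of them, had 72.9, 79.8, 99.95 and 96.02 FPKM in WT S1P and 45.8, 44.5, 46.8 and 44.02 in KO S1P (-0.92 ± 0.09). The differences of these 5 genes ranged from -1.89 (Prdx1) to -0.26 (G6pdx), so genes with the motif differed by very unequal amounts. Srxn1, Pgd and Me1 also held the motif, but not wholly before the start. The fall of Srxn1, given above, was larger than that of any of these 5.

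The integrated stress response, in which ATF4 and CHOP turn on amino acid and recovery genes, was also lower in the knockout in its signalling genes. Of 27 tested genes of this response and of the unfolded protein response, 20 were called lower and 3 higher, with a median of -0.284. Ddit3, which encodes CHOP, had 46.9, 52.6, 76.7 and 77.5 FPKM in WT S1P and 11.9, 11.1, 13.4 and 11.7 in KO S1P (-2.28 ± 0.16). Trib3, a pseudokinase induced by ATF4 and CHOP, had 35.3, 42.4, 57.4 and 57.8 and 8.84, 8.35, 10.5 and 10.2 (-2.21 ± 0.15). The groups were apart in both genes, and WT 27 and 28 were again the highest.

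Other genes of this list differed by -2.05 ± 0.16 (Ppp1r15a, which restarts translation after stress), -1.68 ± 0.11 (Atf3) and -0.94 ± 0.06 (Hspa5, the endoplasmic reticulum chaperone BiP). Atf4 itself differed less, at -0.60 ± 0.09. The 3 genes called higher were Psat1, of serine synthesis, at 0.68 ± 0.06, Shmt2, of mitochondrial folate metabolism, at 0.34 ± 0.04, and Ddit4, an inhibitor of mTORC1 signalling, at 0.55 ± 0.08. The stress list therefore did not move as one. Among 14 heat shock genes, 8 were lower and 1 higher (64.3% called, against 50.9% of all genes). The lower ones were led by Hspa1b at -1.12 ± 0.08 and Hspa1a at -1.002 ± 0.12.

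The element bound by C/EBP-ATF dimers, searched as TGATGNAA on both strands, was present in 6 of 26 windows of the stress list (23.1%), against 4.51% of all genes with a window and 2.74% of the tested ones. The matches of Atf3, Chac1 (which degrades glutathione), Herpud1 (of endoplasmic reticulum-associated degradation) and Nupr1 (a stress-induced nuclear protein) are printed in capitals because these 4 carry the same 8 letters.
Atf3 (chr1:191183406-191183473, gene on the minus strand): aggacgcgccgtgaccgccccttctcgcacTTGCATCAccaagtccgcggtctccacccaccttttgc
Chac1 (chr2:119351019-119351086, gene on the plus strand): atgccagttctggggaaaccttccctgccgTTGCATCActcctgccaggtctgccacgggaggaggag
Herpud1 (chr8:94386287-94386354, gene on the plus strand): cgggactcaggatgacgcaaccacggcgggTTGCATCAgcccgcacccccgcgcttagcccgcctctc
Nupr1 (chr7:126625543-126625610, gene on the minus strand): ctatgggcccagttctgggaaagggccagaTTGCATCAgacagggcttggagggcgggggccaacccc
The difference of Chac1 was -0.53 ± 0.15, that of Herpud1 -0.28 ± 0.05 and that of Nupr1 -0.47 ± 0.08, all smaller than that of Atf3. The libraries of Chac1 overlapped between the groups. The element was also present in the windows of Asns and of Trib3, whose fall was larger than that of Atf3. Chac1 was not called without the filter on low values (adjusted p = 0.0566). The stress list too was chosen for its response, so its share of windows with the element does not bear on the genotypes.

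Lipid uptake, storage and oxidation genes formed another lower group, and several of them were even across the WT libraries. Of 22 genes of fatty acid oxidation and PPAR targets, 15 were lower and 2 higher (77.3% called, against 50.9% of all genes). Their median was -0.219. Plin2, the coat protein of lipid droplets, had 549.97, 606, 664 and 661 FPKM in WT S1P and 141, 149, 143 and 153 in KO S1P (-2.07 ± 0.06, adjusted p = 7.76e-08). Lpl, lipoprotein lipase, had 379, 369, 363 and 386 and 125, 124, 127 and 128 (-1.56 ± 0.03). Cd36, the scavenger receptor and fatty acid transporter, had 479.6, 464, 446 and 479 and 209.99, 209, 212 and 214 (-1.14 ± 0.03). For Lpl and Cd36 the 4 WT libraries lay close together, without the step between WT 25 and WT 27 seen for Cdkn1c and Srxn1.

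Acot2, a mitochondrial acyl-CoA thioesterase, differed by -2.36 ± 0.13, Cpt1a, which admits fatty acids to mitochondria, by -0.94 ± 0.04, and the nuclear receptor Pparg by -1.13 ± 0.08. The 2 members called higher were the fatty acid-binding proteins Fabp5 (0.43 ± 0.03) and Fabp4 (0.23 ± 0.07). Fabp4 was not called without KO 93 (adjusted p = 0.0538) or with TPM scaling (0.0605). Lipa, the lysosomal lipase that frees cholesterol and fatty acids from lipoproteins, fell from 587, 620.4, 654 and 659 FPKM in WT S1P to 276, 289.9, 291 and 286 in KO S1P (-1.14 ± 0.04).

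Genes of the lipid-associated macrophage program, the state in which Trem2 is best known, went in both directions. Of 27 genes, 15 were lower and 8 higher (85.2% called, against 50.9% of all genes), with a median of -0.209. Besides Lpl and Cd36, the growth factors Csf1 (-1.64 ± 0.28) and Igf1 (-0.75 ± 0.04) and the glucan receptor Clec7a (-0.80 ± 0.06) were lower. Csf1 had 22.4, 30.9, 61.04 and 56.8 FPKM in WT S1P and 12.1, 12.04, 11.5 and 12.2 in KO S1P, the least even WT values of the genes named in this group. Apoe, the main apolipoprotein of macrophages, was higher, at 68.2, 63.1, 63.9 and 58.6 and 102, 105, 103 and 108 (0.71 ± 0.05), and so was cathepsin L (Ctsl, 0.62 ± 0.05). Gpnmb, a glycoprotein of lipid-laden macrophages, differed little (-0.19 ± 0.04; not called without the filter on low values, adjusted p = 0.134). Osteopontin (Spp1) was not called (0.09 ± 0.06, adjusted p = 0.226), but was called higher in the knockout without WT 25 (0.15, adjusted p = 0.0133).

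The largest rises included genes of resident-type and alternatively activated macrophages. F13a1, coagulation factor XIII subunit A, had 1.41, 1.13, 1.02 and 1.002 FPKM in WT S1P and 23.5, 24.01, 21.6 and 22.6 in KO S1P, 20.1-fold higher in the knockout (3.48 ± 0.07, adjusted p = 6.97e-09). Cbr2, a carbonyl reductase, had 21.9, 17.9, 9.59 and 10.6 and 119, 132, 126 and 137 (3.09 ± 0.22). Fcrls, an Fc receptor-like protein, had 15.7, 12.4, 7.52 and 8.13 and 84.03, 82.9, 77.1 and 82.5 (2.85 ± 0.19). No WT library reached the KO range in any of the 3, and WT 27 and 28 were the lowest libraries for Cbr2 and Fcrls.

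Of the 15 tested genes of alternative activation, 11 were higher and 1 lower, with a median of 0.92, against 26% of all genes called higher. F13a1, Cbr2, Fcrls and Stab1 of this list were also among the 12 largest rises. The list was chosen with earlier results known, so its share is not independent of these data. Members called higher included the mannose receptor Mrc1 (1.68 ± 0.18), the scavenger receptor Stab1 (1.89 ± 0.14), the hemoglobin receptor Cd163 (0.88 ± 0.09) and arginase (Arg1, 1.34 ± 0.11). Arg1 was low throughout, at 0.990, 0.807, 0.683 and 0.957 FPKM in WT S1P and 4.06, 4.63, 2.88 and 3.46 in KO S1P. It passed the filter only through the KO libraries, so its direction was set by the filter. Egr2, a transcription factor, was the 1 member called lower (-0.65 ± 0.09). The number of members called higher was 8 without KO 91 and 6 at a minimum FPKM of 5. With a KO library left out, a gene that reached an FPKM of 1 only in the KO libraries is no longer tested.

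Core macrophage genes were mostly higher too, 13 of 22 against 4 lower (77.3% called, against 50.9% of all genes). Their median was 0.457. The complement genes C1qa, C1qb and C1qc, whose product tags dying cells, were higher together. C1qa had 284, 223, 152 and 139 FPKM in WT S1P and 636, 649, 603 and 671 in KO S1P (1.74 ± 0.20), and C1qb and C1qc differed by 1.20 ± 0.16 and 1.28 ± 0.16. WT 25 had the highest and WT 28 the lowest C1qa of the WT libraries. The inhibitory Fc receptor Fcgr2b differed by 2.10 ± 0.12, the transcription factor Maf by 1.21 ± 0.15, Csf1r by 0.44 ± 0.08 and Adgre1 (F4/80) by 0.47 ± 0.08. Cd68 went the other way (-0.27 ± 0.04). In bulk RNA, a change in the number of cells of a type and a change in RNA per cell cannot be told apart.

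Of 21 genes for the clearance of dying cells, 13 were higher and 4 lower (81% called, against 50.9% of all genes). The bridging protein Gas6 (218, 187, 138 and 138 FPKM in WT S1P and 474, 498, 480.3 and 489 in KO S1P, 1.53 ± 0.14) and its receptor Mertk (0.83 ± 0.05) were higher. Mfge8 (-0.76 ± 0.03), the bridging protein of integrins, and thrombospondin 1 (Thbs1, -0.57 ± 0.04) were lower. Scavenger and Fc receptors split 8 higher against 9 lower of 19 (89.5% called, against 50.9% of all genes). Msr1 (0.78 ± 0.10) was higher, and Marco (-1.44 ± 0.11) and the secreted scavenger protein Cd5l (-1.37 ± 0.06) were lower. Cd5l was the most even of these across the WT libraries, at 42.4, 42.2, 42.4 and 42.1 FPKM, against 17.1, 14.2, 14.9 and 16.97 in KO S1P.

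Extracellular proteases and coagulation genes held some of the widest differences in both directions. The collagenase Mmp8 had 15.1, 12.5, 11.04 and 11.1 FPKM in WT S1P and 96.8, 96.3, 97.4 and 102 in KO S1P (2.90 ± 0.09), and Mmp27 (2.32 ± 0.12), Mmp10 (2.21 ± 0.12) and Mmp13 (1.67 ± 0.11) were also higher. The gelatinase Mmp9 was lower, at 17.9, 14.98, 12.2 and 10.4 and 1.40, 1.69, 1.84 and 1.26 (-2.52 ± 0.15), and so was the elastase Mmp12 (-0.53 ± 0.07). The plasminogen activator Plau (1.39 ± 0.07) and its inhibitor Serpinb2 (1.48 ± 0.08) were both higher, as was the matrix protein Tgfbi (1.47 ± 0.13).

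Mmp8 and F13a1 are also markers of granulocytes and of monocytes. The 15 granulocyte markers summed to 26.8 to 29.6 FPKM in the WT S1P libraries and 126 to 129 in the KO S1P libraries, and without Mmp8 to 14.2 to 18.5 and 26.6 to 30.7. Ly6g and Retnlg were at 0 in all WT libraries. Of the 6 tested markers, S100a8, S100a9, Elane, Ngp and Mmp8 were called higher, against 26% of all genes. Csf3r, the G-CSF receptor, was lower (-0.40 ± 0.06). S100a8 had 2.80, 2.82, 2.34 and 2.27 FPKM in WT S1P and 6.70, 6.68, 5.49 and 7.07 in KO S1P (1.07 ± 0.08). The number called higher was 4 without KO 91, 3 at a minimum FPKM of 5 and 9 without the filter on low values. A marker that reached an FPKM of 1 only in the KO libraries could enter the test only by being higher there. The 10 monocyte markers summed to 25.4 to 34.9 in WT S1P and 62.8 to 65.0 in KO S1P, and without F13a1 to 24.4 to 33.6 and 38.8 to 43.0. Of 7 tested monocyte markers 4 were higher (57.1% called, against 50.9% of all genes), among them Ly6c2 (0.73 ± 0.09). The part of such cells in the differences above was not tested. The 11 osteoclast markers were lower in sum, 69.2 to 82.3 in WT S1P and 38.2 to 40.4 in KO S1P. Of the 8 tested, 6 were lower, against 24.9% of all genes. The transcription factor Nfatc1 (0.30 ± 0.04) and the RANK receptor Tnfrsf11a (0.22 ± 0.07) were higher. At a minimum FPKM of 5, the number lower was 2. The call of Tnfrsf11a was lost without WT 27 or 28 or KO 91 or 92, without the filter on low values and with TPM scaling (adjusted p 0.055 to 0.0711). The lower ones were led by Mmp9 and by Atp6v0d2, a proton pump subunit with 18.6, 23.6, 36.6 and 36.2 and 6.96, 6.35, 6.64 and 6.40 FPKM (-1.92 ± 0.19), while Calcr, the calcitonin receptor that defines osteoclasts, was at 0 in all 8 libraries.

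Sterol synthesis was higher in the knockout without exception among the genes tested. All 24 tested genes of cholesterol synthesis and uptake were called higher, against 26% of all genes, with a median of 0.694. Their groups did not overlap, as was so for 48.4% of all genes. Acat2, which makes acetoacetyl-CoA, had 8.39, 7.01, 6.88 and 5.68 FPKM in WT S1P and 21.4, 22.6, 22.1 and 21.4 in KO S1P (1.53 ± 0.09). The enzymes Fdft1 and Mvd differed by 1.000 ± 0.06 and 0.99 ± 0.05.

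A sterol response element searched as TCACNCCAC was present in 1 of 17 windows of this list (5.88%), against 1.44% of all genes with a window. It stood in the promoter of Hmgcs1, a synthase early in the pathway, and is printed to show the form found.
Hmgcs1 (chr13:119690184-119690252, gene on the plus strand): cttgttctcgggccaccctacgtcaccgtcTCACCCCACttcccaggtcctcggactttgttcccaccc
Hmgcs1 had 11.96, 10.7, 9.85 and 10.02 FPKM in WT S1P and 22.2, 21.5, 21.4 and 22.7 in KO S1P (0.98 ± 0.06). No match says only that these letters are not in a window. The share in this list rests on 1 gene and does not bear on the genotype difference.

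Fatty acid synthesis went with the sterol genes. Of 18 LXR targets and fatty acid synthesis genes, 13 were higher and 4 lower (94.4% called, against 50.9% of all genes). Their median was 0.38. Fatty acid synthase (Fasn) had 15.6, 15.4, 12.9 and 13.2 FPKM in WT S1P and 33.2, 34.9, 34.5 and 33.2 in KO S1P (1.20 ± 0.06), and the desaturase Scd2 differed by 0.96 ± 0.07. The cholesterol exporter Abca1, a target of LXR rather than of sterol shortage, was also higher (0.63 ± 0.09). The gene of LXR alpha, Nr1h3, overlapped between the groups at 2.88, 2.43, 3.005 and 2.28 and 2.29, 2.39, 1.63 and 1.83 FPKM, and its call (adjusted p = 0.0499) was lost without WT 25, 26 or 27 or KO 93 or 94 (0.0599 to 0.127).

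Cell cycle genes were higher in the knockout as a group. All 25 mitotic genes (median 1.06) and all 28 genes of DNA replication and the G1/S transition (median 0.813) were called higher. Over all genes tested that share was 26%. Ccnb2, a mitotic cyclin, had 29.2, 22.5, 15.3 and 15.1 FPKM in WT S1P and 56.8, 56.9, 52.4 and 55.7 in KO S1P (1.44 ± 0.18). Mki67, the proliferation marker Ki-67, had 46.002, 36.8, 24.6 and 26.9 and 75.3, 69.5, 70.6 and 71.7 (1.12 ± 0.17). The ribonucleotide reductase subunit Rrm2 had 36.2, 27.3, 18.7 and 18.95 and 50.997, 51.5, 54.1 and 52.3 (1.07 ± 0.18). The KO libraries were even and the WT libraries uneven, with WT 25 nearest to the knockout and WT 27 and 28 farthest.

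Pcna, the replication clamp, was the weakest of these genes, at 192, 162, 138 and 138 and 179, 192, 193 and 187 FPKM (0.26 ± 0.10, adjusted p = 0.0482). Its groups overlapped, and without WT 26, 27 or 28 or any 1 KO library it was not called (adjusted p 0.0652 to 0.121). Among 12 CDK inhibitors and D-type and G-type cyclins, 10 were higher and Cdkn1c alone was lower (91.7% called, against 50.9% of all genes). Cdkn2c (1.08 ± 0.14) and the cyclins Ccnd1 (0.56 ± 0.14) and Ccnd3 (0.78 ± 0.13) were higher. Cdkn1a, which encodes the p53-induced inhibitor p21, was not called, at 110.5, 114, 111 and 107 and 113, 114, 109 and 112 FPKM (0.02 ± 0.03, adjusted p = 0.641).

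**Figure D2:**
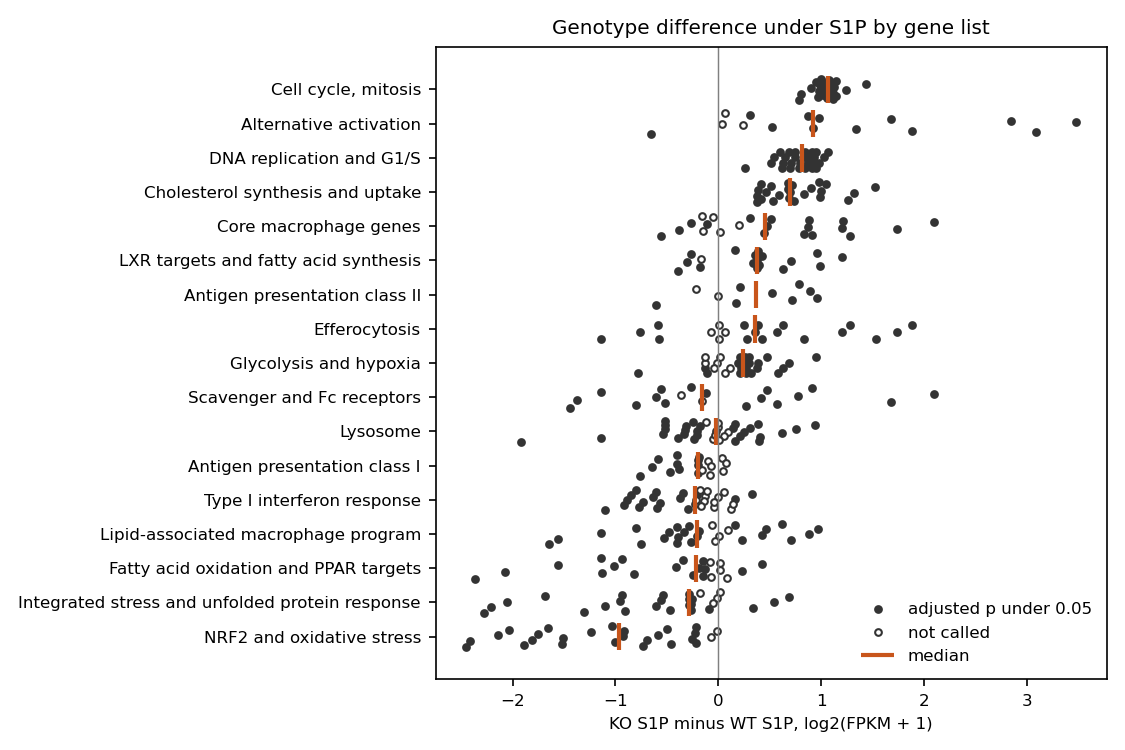
KO S1P minus WT S1P difference on log2(FPKM + 1) for each tested gene of 17 gene lists. Filled points were called at an adjusted p under 0.05, open points were not, and the orange bar is the median of the list. The NRF2 list lies left of 0 with a median of -0.965, the mitosis list right of 0 with 1.06, and the lysosome and scavenger lists spread on both sides.

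Inflammatory and antigen presentation genes were divided. Of 30 type I interferon response genes, 15 were lower and 2 higher, with a median of -0.221. The share called, 56.7%, was close to the 50.9% of all genes. Rsad2, the antiviral protein viperin, had 57.3, 51.4, 50.7 and 47.8 FPKM in WT S1P and 25.1, 24.4, 21.99 and 22.8 in KO S1P (-1.10 ± 0.06), and Ifit1 differed by -0.89 ± 0.08. The 2 called higher were Oas2 and Ifi27l2a, and 0 were called higher without WT 28 or with TPM scaling. Class I presentation genes went the same way, 11 of 18 lower and 0 higher (61.1% called, against 50.9% of all genes). The lower ones included Nlrc5, the activator of class I genes (-0.59 ± 0.04), and H2-D1 (-0.47 ± 0.05).

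Class II presentation genes were higher in 7 of 10 and lower in 1 (80% called, against 50.9% of all genes). H2-Aa had 5.13, 5.14, 5.58 and 4.03 FPKM in WT S1P and 11.1, 10.3, 9.89 and 11.02 in KO S1P (0.96 ± 0.08), and the invariant chain Cd74 differed by 0.72 ± 0.06. The 1 member called lower was the costimulatory molecule Cd86 (-0.60 ± 0.07). Of 24 NF-kB genes, 12 were lower and 5 higher (70.8% called). The neutrophil chemokines Cxcl1 (-1.12 ± 0.08) and Cxcl2 (-0.90 ± 0.07) were lower, and the monocyte chemokine Ccl7 (0.69 ± 0.08) and the inflammasome sensor Nlrp3 (0.54 ± 0.06) were higher. Without KO 92 the number called higher was 3. The number called lower was 8 without WT 28 and 6 at a minimum FPKM of 5. Il1b, Il1a, Il6 and Ptgs2 did not pass the filter on low values. Platelet factor 4 (Pf4) had 426, 449, 403 and 399.8 FPKM in WT S1P and 1002, 1042, 1012 and 1035 in KO S1P (1.28 ± 0.04).

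Lysosomal genes split 12 higher against 15 lower of 36 (75% called, against 50.9% of all genes), with a median of -0.0256. Atp6v0d2 and Lipa were at the lower end and cathepsin C (Ctsc, 0.94 ± 0.06) at the upper end. Of 28 genes of glycolysis and the hypoxia response, 18 were higher and 3 lower (75% called), by a median of 0.237. Egln3 (0.69 ± 0.05) and Bnip3 (0.63 ± 0.06), targets of hypoxia-inducible factor, were higher, while Vegfa, another such target, was lower (-0.78 ± 0.07). Immediate early genes split 7 higher and 8 lower of 18 (83.3% called), with Dusp1 at -1.38 ± 0.11 and Ier3 at 0.76 ± 0.07.

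The S1P receptors differed by less than 0.5 log2 units. S1pr1, a Gi-coupled receptor, had 33.2, 29.9, 27.5 and 27.6 FPKM in WT S1P and 39.4, 38.3, 38.01 and 38.9 in KO S1P (0.38 ± 0.06). S1pr2 had 14.8, 15.8, 16.9 and 16.6 and 11.7, 11.3, 10.8 and 11.6 (-0.46 ± 0.05). S1pr3, S1pr4 and S1pr5 were under the filter on low values. Of 9 tested genes for S1P receptors and metabolism, 2 were higher and 5 lower (77.8% called, against 50.9% of all genes). The lower ones included the kinase Sphk2, which makes S1P (-0.64 ± 0.09), the exporter Abcc1 (-0.65 ± 0.06) and the phosphatase Plpp3 (-1.34 ± 0.16), which was at or below 3.47 FPKM in all 8 libraries.

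The partners of Trem2 were present in both genotypes. Tyrobp had 639.98, 650.2, 604 and 576 FPKM in WT S1P and 688, 736, 721 and 734 in KO S1P (0.22 ± 0.05), a difference that was not called with TPM scaling (adjusted p = 0.0589). Syk differed by -0.10 ± 0.03, Plcg2, a phospholipase downstream of it, by 0.40 ± 0.06, and the inhibitory phosphatase Inpp5d (SHIP1) by 0.62 ± 0.05. Trem1 and Cd33 were higher in the knockout. Trem1, an amplifier of inflammation, had 7.16, 6.75, 4.23 and 4.52 and 23.6, 21.1, 22.4 and 22.1 FPKM (1.83 ± 0.14). Cd33, an inhibitory sialic acid receptor, had 9.92, 8.79, 6.30 and 6.72 and 37.2, 34.01, 36.4 and 36.2 (2.07 ± 0.12).

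Treml1 lies next to Trem2 (chromosome 17, 48359916 to 48367176, with Trem2 at chromosome 17, 48346401 to 48354147, GRCm38). It had 1.70, 2.22, 1.63 and 1.59 FPKM in WT S1P and 9.37, 7.33, 8.88 and 8.16 in KO S1P (1.76 ± 0.09). Of the 17 tested genes within 1 Mb of Trem2, 5 were higher and 5 lower (58.8% called), against 47.8% between 1 and 5 Mb and 51.2% on other chromosomes. Guca1a (-1.01 ± 0.11) and Ccnd3 were among those called. The sources used here do not give the strand setting of the counting, so reads of overlapping genes cannot be told apart. Of 3 tested genes known to vary between C57BL/6 substrains, Wdfy1 was lower in KO S1P (-0.60 ± 0.05), as it was under ACM (-0.74 ± 0.04), Ide was higher (0.12 ± 0.04; not called with TPM scaling, adjusted p = 0.28) and Fgfbp3 was not called (0.03 ± 0.10, adjusted p = 0.815).

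The untreated libraries show which genotype differences were there without S1P, as a test of the difference between the S1P and the untreated comparison. In the fit of 4 groups, the genotype by S1P interaction was called for 4373 of 11187 genes (39.1%), 2365 positive (21.1%) and 2008 negative (17.9%). Without the library labelled KO untreated 81, it was called for 4394 (39.4%). Between the untreated groups themselves, 40 genes were called (0.374%), with 1603 at an unadjusted p under 0.05, and 860 (8.09%) without library 81.

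In many genes named above, though not in all, WT S1P was the group that stood apart, and KO S1P was close to both untreated groups. The median absolute S1P minus untreated difference was 0.171 in WT and 0.0501 in KO, and 336 of 11187 genes differed by at least 1 log2 unit in WT against 22 in KO. No value here measures exposure to S1P itself. The WT S1P libraries also form their own block of numbers, and a technical shift of that block was not tested apart from S1P. For the NRF2 list the median S1P minus untreated difference was 1.08 in WT and 0.0949 in KO, and for the mitosis list -1.2 and -0.0234. The interaction was called negative in 22 of 26 NRF2 genes (21 without library 81). It was called positive in all 24 sterol genes, all 25 mitotic genes and all 28 replication genes, with and without that library. Class II genes and granulocyte markers did not follow this pattern. Their mean levels above WT untreated were 0.263 to 0.337 and 0.466 to 0.655 in KO untreated. In KO S1P they were 0.284 to 0.356 and 0.607 to 0.762. The interaction was positive in 2 and negative in 2 of 12 class II genes, and positive in 2 and negative in 1 of 6 granulocyte markers, with library 81 kept.

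**Figure D3:**
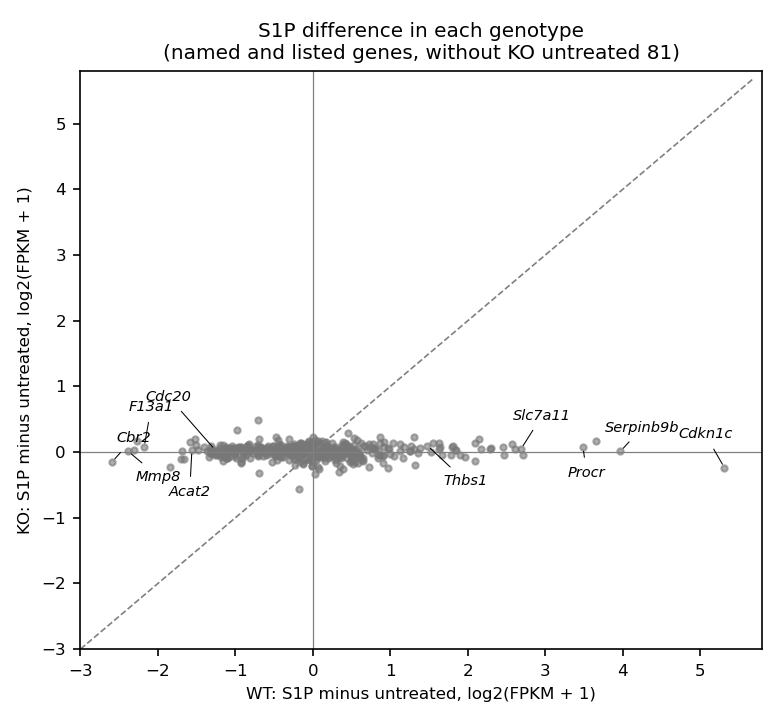
S1P minus untreated difference on log2(FPKM + 1) in WT (x axis) and in KO (y axis, without the library labelled KO untreated 81) for the named and listed genes, 1 point per gene, with a dashed line of equality. The points spread along the x axis, from Cbr2 to Cdkn1c, and stay near 0 on the y axis.

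Single genes show the range of patterns. Prdx1 had 372 ± 6.49 FPKM (SD, n = 4) in WT untreated, 1612 ± 274 in WT S1P (n = 4), 391 ± 10.6 in KO untreated (n = 3) and 430.1 ± 10.3 in KO S1P (n = 4). WT S1P was the only high group, and the interaction was -1.96 ± 0.13 (adjusted p = 1.72e-07). Aacs, which activates acetoacetate for lipid synthesis, had 26.4 ± 0.472 FPKM in WT untreated, 12.5 ± 0.493 in WT S1P, 25.6 ± 1.26 in KO untreated and 25.5 ± 0.646 in KO S1P. Here WT S1P was the only low group (interaction 1.01 ± 0.05, adjusted p = 1.89e-08). Slc11a1, the metal transporter of phagosomes, Creg1, a lysosomal glycoprotein, and Cd300a, an inhibitory lipid receptor, followed Prdx1, with interactions of -1.59 ± 0.11, -1.57 ± 0.10 and -1.80 ± 0.12.

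Other genes differed between the genotypes with and without S1P. Treml1 had 1.86 ± 0.282 FPKM in WT untreated and 8.89 ± 1.84 in KO untreated, close to its values under S1P, and its interaction was -0.02 ± 0.17 (adjusted p = 0.948). The class II gene H2-Eb1 behaved alike, at 7.86 ± 0.821 and 15.2 ± 0.408 untreated and 7.69 ± 0.593 and 15.2 ± 0.871 under S1P (interaction 0.02 ± 0.10, adjusted p = 0.904). F13a1 and Lpl combined both: F13a1 had 8.69 ± 0.612 FPKM in WT untreated and 21.7 ± 0.552 in KO untreated, and the S1P difference was larger (interaction 2.25 ± 0.09, adjusted p = 6.76e-10). Lpl had 250.1 ± 3.63 and 130.5 ± 6.23 untreated (interaction -0.63 ± 0.05, adjusted p = 4.88e-07). A missed threshold does not show that the differences of Treml1 and H2-Eb1 were equal with and without S1P.

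Thbs1 and Cd86 were higher in the knockout without S1P and lower with it. Thbs1 had 9.38 ± 0.223 FPKM in WT untreated and 17.2 ± 0.576 in KO untreated, but 27.96 ± 0.788 and 18.5 ± 0.824 under S1P (interaction -1.38 ± 0.05, adjusted p = 6.62e-10). Cd86 had 6.85 ± 0.264 and 11.3 ± 0.634 untreated and 16.6 ± 1.91 and 10.6 ± 0.513 under S1P (interaction -1.25 ± 0.10, adjusted p = 7.06e-07). In both, the KO groups were alike and the WT groups moved past them.

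**Figure D4:**
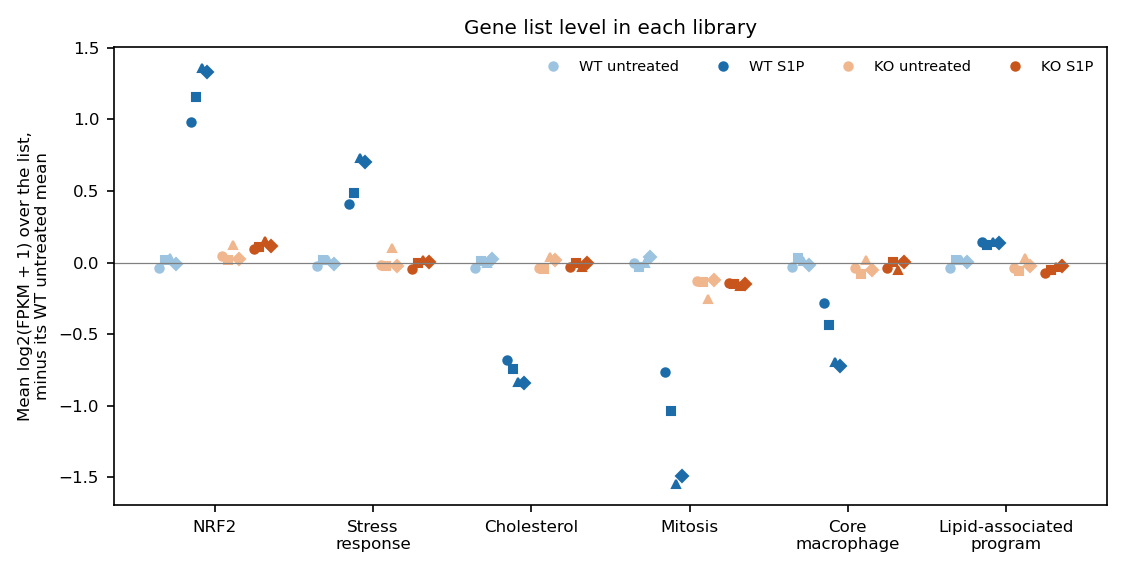
Mean log2(FPKM + 1) over the tested genes of 6 lists in each library, minus the WT untreated mean of the list, with the library labelled KO untreated 81 shown as the triangle of KO untreated. WT S1P libraries (dark blue; circle 25, square 26, triangle 27, diamond 28) run from 0.981 to 1.36 for the NRF2 list and from -0.761 to -1.547 for mitosis, while KO S1P libraries lie between 0.097 and 0.154 and between -0.141 and -0.166.

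The list levels separated WT 25 and 26 from WT 27 and 28 in both directions. The NRF2 list stood at 0.981 and 1.157 above the WT untreated mean in WT 25 and 26 and at 1.36 and 1.329 in WT 27 and 28. The core macrophage list stood at -0.279 and -0.437 in WT 25 and 26 and at -0.696 and -0.721 in WT 27 and 28. The lipid-associated list did not follow that order, at 0.145, 0.125, 0.142 and 0.134. The type I interferon list ran the other way, at 0.439 and 0.259 in WT 25 and 26 and 0.038 and -0.008 in WT 27 and 28. KO S1P stood at -0.211 to -0.089, so that there WT 25 and 26 lay farthest from the knockout. In that list the library labelled KO untreated 81 stood at 0.83, outside the -0.054 to 0.051 of the WT untreated libraries.

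The ACM libraries give the same genotype contrast in 8 libraries that the S1P comparison does not use. There, 3619 of 10733 genes (33.7%) were called, 1706 higher (15.9%) and 1913 lower (17.8%). With TPM scaling the split turned to 1258 higher and 805 lower of 2063. Of the 2805 genes higher under S1P, 2790 were tested under ACM, and 1222 (43.8%) were called in the same direction and 121 in the opposite one. Of the 2689 lower genes, 2618 were tested, and 1220 (46.6%) were called in the same direction and 60 in the opposite one. Among genes with a log2 difference of at least 1 under S1P, 142 of 150 higher (94.7%) and 127 of 141 lower (90.1%) were called the same way. Their median differences were 1.14 under S1P and 0.409 under ACM for the higher genes, and -1.35 and -0.534 for the lower ones.

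The difference between the S1P and ACM contrasts was called for 3427 of 11159 genes (30.7%), 1952 positive (17.5%) and 1475 negative (13.2%). With TPM scaling the split turned to 749 positive and 1626 negative of 2375, and the median over all genes moved from 0.000279 to -0.109. Cdkn1c differed by -5.61 ± 0.17 under S1P and -2.66 ± 0.08 under ACM, and Prdx6, a peroxiredoxin, by -1.66 ± 0.09 and -0.47 ± 0.04. Nqo1 differed by -2.14 ± 0.09 under S1P and -0.27 ± 0.08 under ACM (difference -1.87 ± 0.13, adjusted p = 9.6e-07). Pla2g7, the lipoprotein-associated phospholipase, differed by -1.48 ± 0.07 under S1P and -0.08 ± 0.05 under ACM, where it was not called (difference -1.40 ± 0.09, adjusted p = 7.03e-07). Mmp12 went opposite ways, -0.53 ± 0.07 under S1P and 0.40 ± 0.03 under ACM. Lpl (-1.24 ± 0.05 under ACM), Pf4 (1.16 ± 0.03) and Mmp8 (2.46 ± 0.04) differed by amounts closer to those under S1P.

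Gene lists shifted unequally between the treatments, whose libraries also come from separate blocks of numbers. The mitosis list had a median of 1.06 under S1P and 0.241 under ACM, and the NRF2 list -0.965 and -0.264. Type I interferon genes went further under ACM, where 29 of 30 were lower with a median of -0.804. Glycolysis and hypoxia genes were lower under ACM in 18 of 28 with 0 higher, against 18 higher and 3 lower under S1P.

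**Figure D5:**
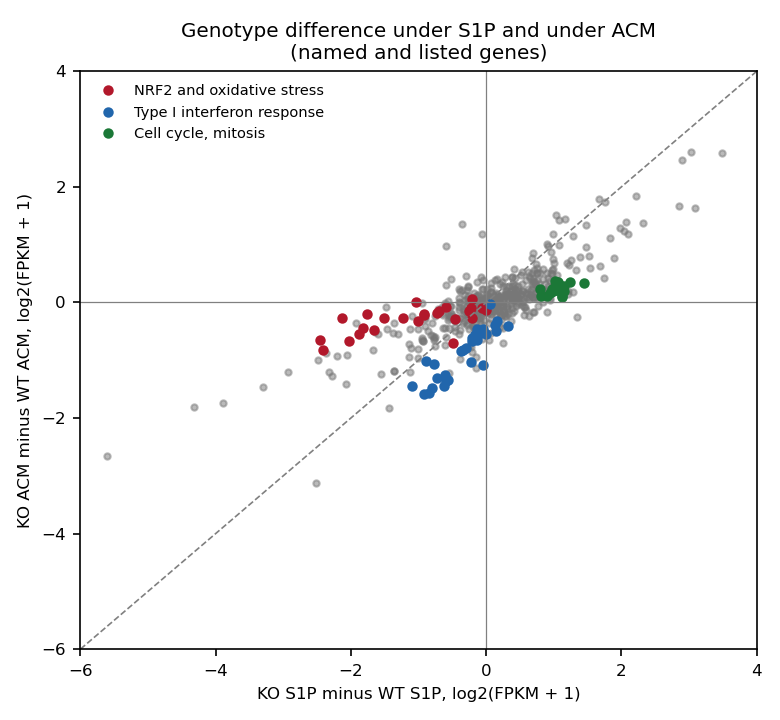
KO minus WT difference on log2(FPKM + 1) under S1P (x axis) and under ACM (y axis) for the named and listed genes, with a dashed line of equality. NRF2 genes (red) and mitotic genes (green) lie nearer to 0 under ACM, and interferon genes (blue) lie below the line, with medians of -0.221 under S1P and -0.804 under ACM.

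There were 12 genes called with a log2 difference of at least 1 in the same direction under S1P, under ACM and in untreated cells without library 81. They were Trem2, Treml1, F13a1, Mmp9, Mmp10 and S100a9, the mitochondrial gene mt-Nd3, and Dynlt1b and the pseudogene Tmem181b-ps on chromosome 17. The others were the pseudogenes Mid1-ps1 on the Y chromosome and Gm28438 on chromosome 1, and the long non-coding RNA gene Gm42031. Gm42031 differed by -4.76 under S1P, -5.42 under ACM and -5.25 in untreated cells, and mt-Nd3 by 2.39, 2.53 and 2.26. Gm28438 went the opposite way to mt-Nd3, at -3.51, -2.73 and -3.2, and whether these genes share reads was not tested. Dynlt1b and Tmem181b-ps lie next to each other (6430112 to 6436296 and 6438524 to 6467022, GRCm38) and differed by -1.21 and -1.05 under S1P. Near-identical copies can share reads with the pseudogenes and with Dynlt1b, so their values are uncertain.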

How the data were processed

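Per the labels' protocols, oligo(dT) beads enriched the mRNA that was sequenced. The values are FPKM deposited by the authors (54532 genes, 24 libraries). HISAT2 and STAR, StringTie and featureCounts, and DESeq, edgeR and STAR-Fusion are named, with mm10 and GRCm38, in the submitters' processing notes, which as held here state no role or strand setting. GENCODE M21 named 54495 identifiers. Low FPKM steps gave whole reads for 96.4 to 96.7% of values per library (tolerance 0.05) and a depth of 16.6 to 25.2 M reads (M is 1e+06) over all libraries.

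Groups came from the labels. Genes with FPKM of at least 1 in 4 libraries were tested on log2(FPKM + 1) with limma 3.58.1 (trend, R 4.3.3), in 1 fit per comparison of only its groups, with Benjamini-Hochberg adjustment over all genes tested. Fold changes understate low genes. On simulated data for KO S1P against WT S1P, 92% of 50 genes changed by 0.5 log2 units and 100% of 50 changed by 1 were recovered. There were 8 calls among the unchanged of 10632 genes. The simulation changed 50 genes at each of the sizes 0.5, 1, 2 and 4, far fewer than the 5494 called in the data. Its count of false calls therefore does not carry over to the data. Members and gene lists were chosen with earlier results of these data known. Named genes are Trem2, the 12 largest rises and falls among called protein-coding genes without overlap and with a mean FPKM of at least 5, up to 4 members of each list by adjusted p, the 10 genes with the smallest p in each interaction, S1P receptors, genes within 1 Mb of Trem2 and cell type markers; other list members, and the 12 genes that differed in all 3 treatments, were chosen after their values were seen. Some genes that this rule names are not reported here. Alternatives were the pseudocount, filter, scaling, fit and each library left out. The design planned a count test as an alternative, and limma voom on the recovered reads took its place. Promoter windows came from RefSeq (GRCm38.p6).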

Additional observations from a re-analysis of the deposited data

Results flagged for a closer look

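The genotype difference under S1P differed from that in untreated cells for 4373 genes, by the interaction term in limma with all 16 libraries of those groups. The interaction (log2) was -5.73 for Cdkn1c, -4.09 for Serpinb9b, -2.02 for Prdx1, -1.82 for Cd300a, -1.61 for Slc11a1, -1.59 for Creg1, -1.20 for Thbs1, -1.08 for Cd86 and -0.88 for Lpl. It was 2.77 for F13a1 and 1.02 for Aacs. These values hold the library labelled KO untreated 81, whose Trem2 was at the wild-type level. The genotype difference also differed between S1P and ACM for 3427 genes, by -1.87 ± 0.13 for Nqo1 and -1.40 ± 0.09 for Pla2g7.

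Each of the 170 named genes was checked for 1 library far from the other 3 of its group, in both S1P groups, by Dixon's 95% rule. Of 340 groups of 4, 15 had such a library, 3 in WT S1P and 12 in KO S1P, and chance gives about 1 in 20. In WT S1P, library 26 was the highest for Treml1 (2.22 FPKM, others 1.59 to 1.70) and H2-Eb1 (8.57, others 7.28 to 7.46), and library 25 for Spp1 (5056, others 4276 to 4395). In KO S1P, library 91 was highest for Asns (35.1) and lowest for Sqstm1 (177.1). Library 92 was highest for Ifitm1 (80.9), Hspa5 (315.5) and Serpinb2 (3.57) and lowest for Uty (3.01). Library 93 was highest for Gsr (26.9), Tkt (66.8) and Abcc1 (22.96). Library 94 was highest for Slc11a1 (39.3), Mmp27 (17.3) and Gstm1 (50.6). Some of these gaps are small: for Slc11a1 the other 3 ran from 38.5 to 38.7.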

How the results depend on the processing

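For KO S1P against WT S1P, the number of genes called was 4149 to 5958 over 8 other choices of pseudocount, filter, scaling and fit, 4735 to 5734 when leaving out each library in turn, and 5559 with limma voom on recovered reads, which was chosen after the data were seen. The 313 genes called with a log2 difference of at least 1 became 540 with a pseudocount of 0.1 and 550 with limma voom. TPM scaling gave 2082 higher and 2917 lower genes against 2805 and 2689. The planned edgeR count test was not run, because the files hold FPKM. No paired analysis was possible because the groups share no replicate numbers. Over the 170 named genes, 2749 of 2814 values kept their direction and their side of the threshold, 60 lost their call, 5 gained one and 0 changed direction. Many of these genes were chosen for a large difference or a small adjusted p in the main fit. The alternatives refit the same libraries, so this count does not measure how well such calls hold in new data. For the genotype difference under S1P minus that under ACM, TPM scaling gave 749 positive calls. For KO ACM against WT ACM it gave 2063 calls, 805 of them lower.

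For KO untreated against WT untreated, the 40 calls (20 higher, 20 lower) were 44 with median scaling, 39 with robust eBayes and 32 with a pseudocount of 0.1 (13 higher). There were 3 without a filter (0 higher, 3 lower), 65 at a minimum FPKM of 5 (38 higher), 230 with TPM scaling (201 lower), 63 with quantile normalization (37 higher) and 281 with all 6 groups in 1 fit (143 higher, 138 lower). Leaving out 1 library gave 0 to 860 calls, 0 to 393 higher and 0 to 467 lower, and the highest values were without the library labelled KO untreated 81. Depth limits genes near an FPKM of 1, whose fold changes are understated by the pseudocount.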
